A study of Arabidopsis thaliana with 15 samples.

Results

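The 10 genes described here act in the turnover of, and the response to, the plant hormone abscisic acid (ABA). Their rule was a list of gene identifiers with no threshold on measured values, drawn up with earlier results of these data known, and they are 10 of the 32833 genes in the expression table of leaf 6 of *Arabidopsis thaliana* Col-0. The set was *NCED3* (AT3G14440) for ABA synthesis, *CYP707A1* (AT4G19230) and *CYP707A3* (AT5G45340) for ABA inactivation, the phosphatase genes *ABI1* (AT4G26080), *ABI2* (AT5G57050), *HAI1* (AT5G59220) and *HAI2* (AT1G07430), and the response genes *RD29A* (AT5G52310), *RD29B* (AT5G52300) and *RAB18* (AT5G66400). RNA-seq covered 5 groups of 3 libraries, all from wild-type Col-0 plants 22 to 24 days old, grown on MS medium at 22 °C with 10 h of light and 14 h of darkness. Leaf 6, a target leaf that was not itself treated, was taken 1 h after 100 mM glutathione (GSH) was put on leaf 1, 1 h after 100 mM glutamate (Glu) was put on leaf 1, or 1 h after leaf 1 was wounded. The controls were leaf 6 of plants given no small molecule (mock, for GSH and Glu) and leaf 6 taken ahead of wounding (wounding mock, for wounding). The mock plants did not get a solution lacking the molecule, and the wounding mock was not sampled 1 h later, so that handling and solution cannot be told apart from GSH and Glu, and the passing of 1 h cannot be told apart from wounding. By the study's methods the molecules went onto a cut made in leaf 1 some hours ahead. Whether leaf 1 of the mock plants had been cut is not given in the sources used here, so that the cut cannot be told apart from the molecule against mock, nor from the molecule in its difference from wounding. No label states whether the 3 libraries of a group came from separate plants, and the p-values below measure the spread between these libraries.

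ABA is the hormone that plants accumulate under water deficit, and it closes stomata and induces protective proteins. NCED3 cleaves carotenoid precursors in the step that limits ABA synthesis in drying leaves, and the CYP707A enzymes hydroxylate ABA and so start its breakdown. ABA bound to its PYR/PYL receptors inhibits clade A protein phosphatases, among them ABI1, ABI2, HAI1 and HAI2, which otherwise keep the SnRK2 kinases inactive. The released kinases activate transcription factors that bind ABA-responsive elements and switch on genes such as *RD29B* and *RAB18*. The phosphatase genes are themselves ABA-inducible, which gives a negative feedback. *RD29A* also responds to cold and dehydration through dehydration-responsive elements, the binding sites of CBF and DREB2 factors. Wounding is better known for jasmonate responses, and a few of the ABA response genes, *RD26* and *NAC019* among them, also respond to jasmonate.

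The sequences upstream of the genes were read because the members differed in their response to wounding, as given below. The 250 bases before each annotated gene start were taken from the RefSeq assembly TAIR10.1 and searched on both strands for the ABA-responsive element core ACGTG and the dehydration-responsive element core CCGAC. The palindrome CACGTG holds the first core on each strand and is counted there as 2 overlapping matches. The windows of the gene with the largest wounding change (*HAI2*), of its close relative without a call (*HAI1*), of *CYP707A1* and of the neighbouring *RD29A* and *RD29B* are given 5′ to 3′, with the cores in capitals.

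*HAI2* (chr1:2282829-2283078, minus strand): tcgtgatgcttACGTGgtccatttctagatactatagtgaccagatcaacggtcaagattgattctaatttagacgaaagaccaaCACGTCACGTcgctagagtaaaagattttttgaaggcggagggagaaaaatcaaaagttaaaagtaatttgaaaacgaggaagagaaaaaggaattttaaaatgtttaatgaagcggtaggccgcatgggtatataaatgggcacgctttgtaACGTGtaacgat
*HAI1* (chr5:23896940-23897189, minus strand): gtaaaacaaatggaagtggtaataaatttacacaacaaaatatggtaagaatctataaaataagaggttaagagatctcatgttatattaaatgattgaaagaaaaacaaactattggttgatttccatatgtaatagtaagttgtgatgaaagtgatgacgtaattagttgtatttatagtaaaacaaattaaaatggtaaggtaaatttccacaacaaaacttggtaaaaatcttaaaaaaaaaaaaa
*CYP707A1* (chr4:10521009-10521258, plus strand): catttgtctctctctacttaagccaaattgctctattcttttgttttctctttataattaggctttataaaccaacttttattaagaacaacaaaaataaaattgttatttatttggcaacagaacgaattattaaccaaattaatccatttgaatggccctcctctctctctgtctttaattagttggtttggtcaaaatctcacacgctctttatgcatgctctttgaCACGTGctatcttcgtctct
*RD29A* (chr5:21240467-21240716, plus strand): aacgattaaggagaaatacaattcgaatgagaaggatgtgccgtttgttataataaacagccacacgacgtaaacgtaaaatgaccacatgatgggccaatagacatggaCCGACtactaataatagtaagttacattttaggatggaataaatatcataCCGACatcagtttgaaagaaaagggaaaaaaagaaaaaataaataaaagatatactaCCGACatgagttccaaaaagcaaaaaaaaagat
*RD29B* (chr5:21236771-21237020, plus strand): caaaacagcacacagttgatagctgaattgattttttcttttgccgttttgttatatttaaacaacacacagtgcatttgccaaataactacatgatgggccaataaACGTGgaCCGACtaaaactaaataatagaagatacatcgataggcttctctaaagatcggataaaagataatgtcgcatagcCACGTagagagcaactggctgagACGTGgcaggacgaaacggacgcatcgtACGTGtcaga

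*HAI2* held 4 ACGTG cores, which began 239, 165, 160 and 12 bases before the gene start, whereas *HAI1* held neither core. In its window *RD29A* held 3 CCGAC cores at 140, 90 and 33 bases and no ACGTG. *RD29B* held 4 ACGTG cores at 143, 61, 38 and 10 bases and 1 CCGAC at 136 bases. *CYP707A1* and *CYP707A3* each held 1 CACGTG, and *RAB18* held 3 ACGTG cores. The windows of *NCED3*, *ABI1* and *ABI2* held neither core. In all, 5 of the 10 windows held ACGTG and 2 held CCGAC, where 22.9% and 12.0% of the 27443 protein-coding genes did, and 8.84% of all windows held 2 or more ACGTG cores. *ABI1* and *HAI2*, which both rose after wounding, thus differed in these windows. A match to these letters is a description and not a measured binding site. Bases past the annotated start or further upstream were not searched. A core that lies there, in *RD29A* or any other member, is therefore not counted, and a window without a core does not show that the gene lacks one.

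**Figure D1:**
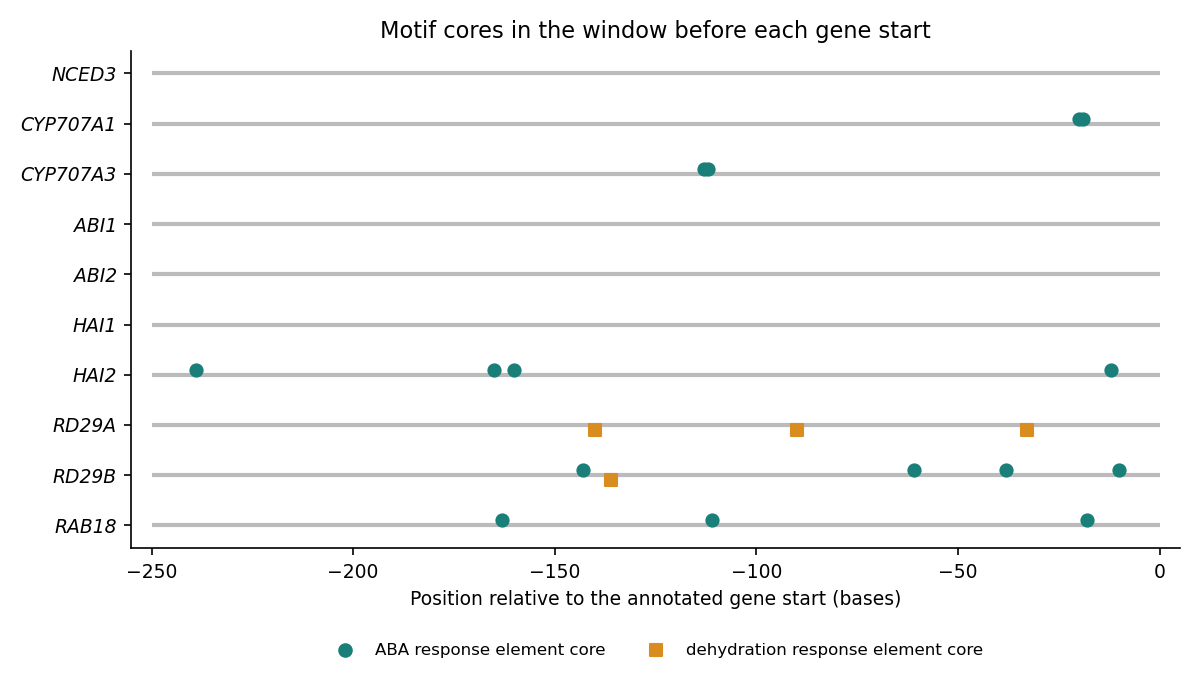
Positions of ACGTG and CCGAC cores (both strands) in the 250 bases before the annotated start of each of the 10 genes, with the distance from the start in bases on the horizontal axis. *HAI2* and *RD29B* carried 4 ACGTG cores each and *RD29A* 3 CCGAC cores, and *NCED3*, *ABI1*, *ABI2* and *HAI1* had neither.

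Expression was given by the authors as FPKM, the fragments mapped to a transcript scaled by its length and by all fragments mapped, a level that can be set side by side between genes. The number of reads behind a value is unknown. Across the 15 libraries the FPKM summed to 548167 to 580837, and 14 of them listed 21090 to 21750 genes above 0, but wounding mock replicate 1 listed 18664. That library was the lowest of its group for 9 of the 10 members, against 57.1% of the 16803 genes tested in that comparison. The green-leaf markers summed to 12341 to 18237 FPKM in every library and were thus high in every one, as the labelled tissue has it, and none of the 20 cell type markers was at 0 throughout. In whole leaves, fewer cells of a type and less RNA per cell cannot be told apart. In the mock libraries, *RD29A* was the highest member at 322 ± 14.3 FPKM (mean ± SD, n = 3, as throughout). *RAB18* (42.3 ± 15.1) and *ABI1* (33.5 ± 6.55) came next and overlapped, followed by *ABI2* (9.44 ± 1.73), *HAI1* (7.91 ± 1.26) and *HAI2* (5.97 ± 2.18), whose ranges overlapped from each to the next. *RD29B* (1.97 ± 0.835) overlapped *NCED3* (1.44 ± 0.102), and *CYP707A1* (0.758 ± 0.0332) and *CYP707A3* (0.0656 ± 0.0692) were lowest. *RD29A* and *RD29B* lie next to each other on chromosome 5, and the FPKM of *RD29A* was 77.9 to 743 times that of *RD29B* over the 15 libraries.

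Differences were tested with limma on log2(FPKM + 1), a scale on which the change of low genes is understated, over all genes with at least 1 FPKM in 3 libraries of the comparison. A gene passed at a Benjamini-Hochberg adjusted p under 0.05 over all genes tested, and it also met the study's criterion for a differentially expressed gene (DEG) if its absolute log2 fold change was above 1. Of the members, 3 of the 9 tested passed after wounding, where 19.7% of all tested genes passed (8.76% higher and 10.9% lower), and 1 of the 9 was a DEG, where 8.02% of all were. None of the 8 tested members passed after GSH, where 4.62% of all genes passed and 1.21% were DEGs, nor after Glu, where 10.2% passed and 1.23% were DEGs. At an unadjusted p under 0.05 there were 2 members after GSH and 1 after Glu, where 20.4% and 26.9% of all tested genes were. After wounding, the wounding and wounding mock libraries did not overlap for 4 of the 9 tested members, and this was so for 39.0% of all tested genes, so that the members as a group were near the background. *CYP707A1*, among the 4, reached 1 FPKM in the wounding libraries alone and was tested only through them, so that its separation is no separate support. Without wounding mock replicate 1, 5 members passed after wounding: *CYP707A1*, *ABI1* and *HAI2* higher, and *RD29A* and *RD29B* lower. The share of all genes that passed then rose to 31.8%. With median-ratio scaling of the libraries the split of all calls moved from 44.6% to 58.9% higher, and the same 3 members passed.

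**Figure D2:**
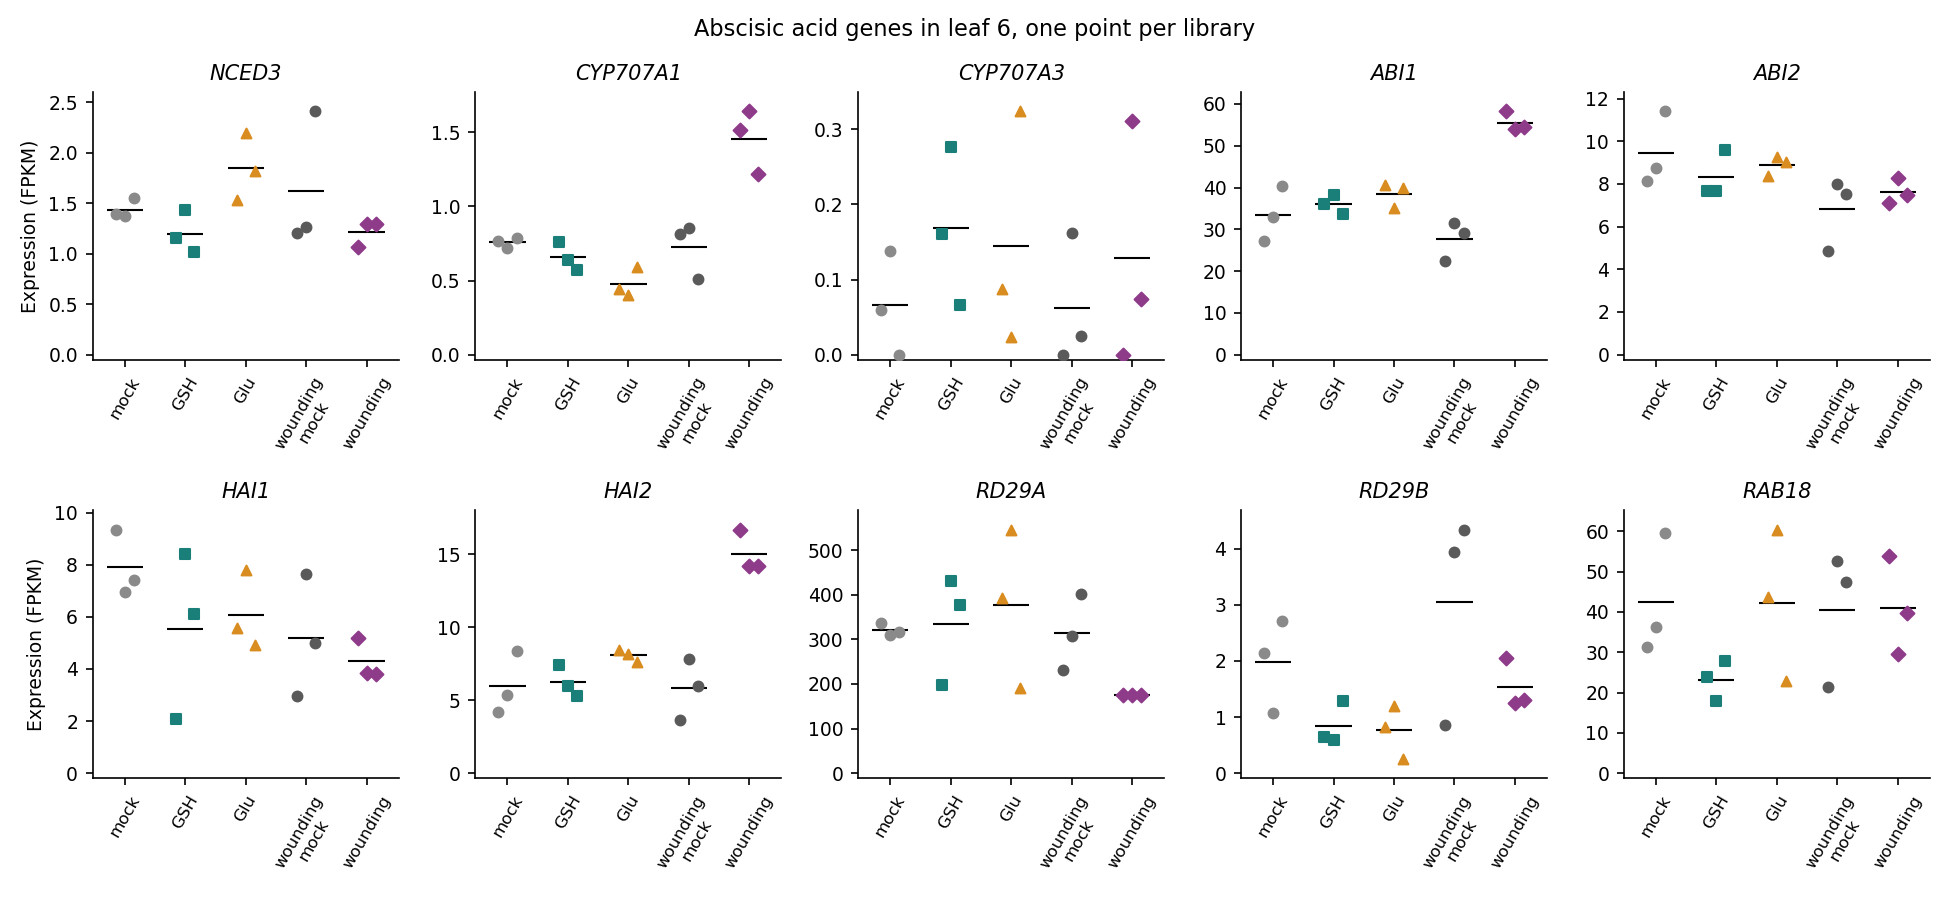
FPKM of each of the 10 genes in the 15 libraries, 1 panel per gene with its own linear axis from 0. Points are libraries and horizontal bars are group means of 3 libraries; the wounding libraries of *ABI1*, *HAI2* and *CYP707A1* lie above all others, and those of *RD29A* lie within 174.6 to 176.4 FPKM.

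Of the members that make or break down ABA, none passed in a comparison of a treatment with its control. *NCED3* was at 1.39, 1.37 and 1.55 FPKM in mock, 1.15, 1.43 and 1.02 after GSH, and 1.54, 2.19 and 1.81 after Glu. It was at 1.20, 1.26 and 2.41 FPKM in wounding mock and at 1.07, 1.29 and 1.29 after wounding. The groups of every treatment and its control overlapped, and the log2 fold changes were −0.15 (SE 0.14, adjusted p = 0.60) for GSH, 0.22 (SE 0.14, adjusted p = 0.34) for Glu and −0.22 (SE 0.21, adjusted p = 0.56) for wounding. The 95% interval for wounding was −0.71 to 0.28 on this scale, on which a gene near 1 FPKM moves little.

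*CYP707A1*, by contrast, was highest in the 3 wounding libraries. It was at 1.51, 1.64 and 1.22 FPKM after wounding, and at 0.816, 0.855 and 0.508 in wounding mock. No wounding library overlapped a library of any other group, and the mean was 2.01 times that of wounding mock, but the change did not pass (log2 fold change 0.51, SE 0.18, adjusted p = 0.086). The gene reached 1 FPKM in the wounding libraries alone, and so entered the test through the group in which it was high. It passed under 4 of 10 alternatives: with all 15 libraries in the fit (adjusted p = 0.012), with no variance trend (0.040), with mock as the control (0.021) and without wounding mock replicate 1 (0.046). The filter at 5 FPKM, or leaving out any 1 of the wounding libraries, took it out of the test. In the other groups it was at 0.768, 0.721 and 0.785 FPKM in mock, 0.762, 0.636 and 0.574 after GSH, and 0.442, 0.399 and 0.593 after Glu. All 3 Glu libraries were thus below all 3 mock libraries, at levels under the expression filter, so that no test was made across all genes there. An exact permutation test on the FPKM of this gene alone, two-sided, gave p = 0.10, the smallest that 3 against 3 libraries allow. *CYP707A3* was between 0 and 0.324 FPKM in every library and was not tested. The related *CYP707A2* fell after wounding, from 2.14, 3.57 and 4.32 FPKM to 0.360, 0.693 and 0.120 (log2 fold change −1.63, SE 0.25, adjusted p = 0.0039), the only gene of ABA inactivation with a called direction there. Of these 2 groups, *CYP707A2* reached 1 FPKM in wounding mock alone, and so entered the test through the group in which it was high.

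Of the 4 phosphatase genes, *ABI1* and *HAI2* rose after wounding and their close relatives *ABI2* and *HAI1* did not pass. *ABI1* was at 22.3, 31.5 and 29.1 FPKM in wounding mock and at 58.2, 53.9 and 54.5 after wounding. The groups did not overlap, and the mean rose 2.01-fold, from 27.6 ± 4.75 to 55.6 ± 2.32 FPKM (log2 fold change 1.00, SE 0.14, adjusted p = 0.0022), just under the DEG criterion. *HAI2* was at 3.65, 7.82 and 6.00 FPKM in wounding mock and at 16.7, 14.2 and 14.2 after wounding. It rose 2.58-fold and was the only member that was a DEG in the comparisons of a treatment with its control (log2 fold change 1.28, SE 0.23, adjusted p = 0.0074). *ABI2* was at 4.87, 8.02 and 7.52 FPKM in wounding mock and at 7.11, 8.30 and 7.48 after wounding (log2 fold change 0.17, 95% interval −0.26 to 0.60, adjusted p = 0.60). *HAI1* was at 2.96, 7.64 and 5.01 FPKM and at 5.21, 3.84 and 3.82 (log2 fold change −0.17, 95% interval −0.82 to 0.49, adjusted p = 0.74). For both genes the wounding libraries overlapped those of wounding mock, and the interval of *HAI1* is wide.

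Ratios taken within a library do not depend on a factor that scales the whole library. The FPKM of *HAI2* was 1.23, 1.02 and 1.20 times that of *HAI1* in wounding mock and 3.20, 3.70 and 3.72 times after wounding. The FPKM of *ABI1* was 4.58, 3.93 and 3.87 times that of *ABI2* in wounding mock and 8.19, 6.50 and 7.29 times after wounding. Both ratios separated the groups, including wounding mock replicate 1, and the exact permutation test gave p = 0.10 for each, the smallest possible. After GSH and Glu the *HAI2* to *HAI1* ratio overlapped that of mock, where it was 0.446, 0.769 and 1.13; it was 3.59, 0.712 and 0.866 after GSH and 1.51, 1.05 and 1.55 after Glu. The *ABI1* to *ABI2* ratio was 4.83, 3.80 and 4.41 after Glu, above the 3.34, 3.76 and 3.54 of mock (exact p = 0.10), and 4.72, 4.98 and 3.49 after GSH, which overlapped mock (exact p = 0.30). The third pair behaved otherwise. The *RD29A* to *RD29B* ratio was 295 to 741 after GSH and 453 to 743 after Glu, above the 117 to 291 of mock (exact p = 0.10 each). It overlapped between wounding and wounding mock, at 85.0 to 141 and 77.9 to 269 (exact p = 0.90). Its denominator *RD29B* was near or under the filter, at 0.583 to 1.28 FPKM after GSH and 0.258 to 1.21 after Glu. The levels of each of these 2 genes overlapped mock after both molecules.

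*ABI1* was at 27.2, 33.0 and 40.3 FPKM in mock, 36.2, 38.3 and 33.6 after GSH, and 40.6, 35.2 and 39.8 after Glu. *HAI2* was at 4.16, 5.35 and 8.39 FPKM in mock, 7.43, 6.00 and 5.30 after GSH, and 8.44, 8.15 and 7.59 after Glu. Neither gene separated the treated from the mock libraries, and the log2 fold changes were 0.12 (adjusted p = 0.68) and 0.09 (adjusted p = 0.85) for GSH and 0.21 (adjusted p = 0.33) and 0.42 (adjusted p = 0.19) for Glu. *ABI2* and *HAI1* also overlapped mock after both molecules. *ABI2* was at 8.15, 8.76 and 11.4 FPKM in mock, 7.66, 7.69 and 9.60 after GSH, and 8.40, 9.27 and 9.04 after Glu. *HAI1* was at 9.34, 6.96 and 7.44 FPKM in mock, 2.07, 8.42 and 6.12 after GSH, and 5.57, 7.80 and 4.90 after Glu, and GSH replicate 1 was the lowest of all 15 libraries. Without mock replicate 3, the library in which *HAI2* was highest among the mocks, *HAI2* passed after Glu (log2 fold change 0.66, adjusted p = 0.016). That was the sole alternative of 14 with this call, and 11.4% of all tested genes passed there.

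*ABI1* overlaps the gene *MEK1* (AT4G26070) in the annotation, and whether strand was used in the counting is not given in the sources used here, so that reads of the pair may have been shared. The level of *MEK1* was 7.41 to 9.59 FPKM after wounding and 5.01 to 10.8 in wounding mock (log2 fold change 0.06, adjusted p = 0.91). *MEK1* was higher than mock after GSH (log2 fold change 0.80, adjusted p = 0.013) and after Glu (0.84, adjusted p = 0.0022), the treatments in which *ABI1* did not pass.

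The difference between treatments was tested directly, as the effect of the molecule against mock minus the effect of wounding against wounding mock. In this test 13.4% of all genes passed for GSH and 15.2% for Glu, and 2 of 9 tested members passed in each. The effect of GSH was lower than that of wounding for *ABI1* by 0.88 on the log2 scale (SE 0.21, adjusted p = 0.013) and for *HAI2* by 1.19 (SE 0.34, adjusted p = 0.038). The effect of Glu was lower than that of wounding for *ABI1* by 0.78 (SE 0.21, adjusted p = 0.021) and for *CYP707A1* by 0.76 (SE 0.20, adjusted p = 0.022). *CYP707A1* met the expression filter here through its wounding libraries alone, so that its call is no separate support for a wounding change. The difference for *HAI2* with Glu was −0.85 (SE 0.33, adjusted p = 0.11) and that for *RD29A* was 0.79 with GSH (adjusted p = 0.18) and 0.90 with Glu (adjusted p = 0.19). These values rest on 4 groups of 3 libraries each, and the calls for *HAI2* with GSH and for *ABI1* and *CYP707A1* with Glu were lost when some of the libraries were left out. The call for *ABI1* with GSH remained without each library in turn. *RD29A* passed for GSH without GSH replicate 1 and for Glu without Glu replicate 3.

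**Figure D3:**
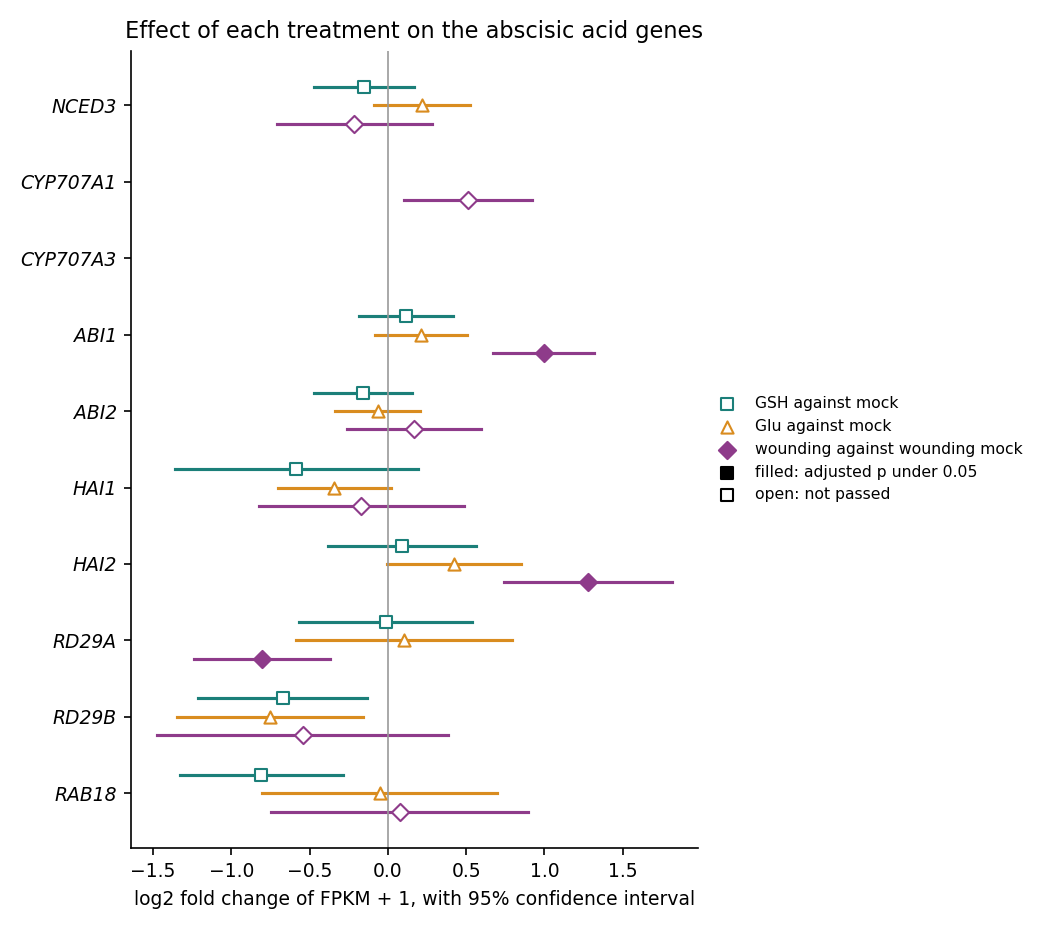
Log2 fold change of FPKM + 1 with its 95% interval for each tested gene after GSH, Glu and wounding, each against its own control (n = 3 per group). Filled points have an adjusted p under 0.05: *ABI1* at 1.00, *HAI2* at 1.28 and *RD29A* at −0.80, all after wounding.

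The 3 response genes did not move together. *RD29A* encodes a hydrophilic protein of the dehydration and cold response. It was at 232, 308 and 403 FPKM in wounding mock and at 174.6, 176.4 and 175.3 after wounding. All wounding libraries were below all wounding mock libraries, and the level fell by 0.80 on the log2 scale (SE 0.19, adjusted p = 0.022). The SD of the wounding libraries, 0.889 FPKM, was much smaller than that of any other group (14.3 to 177), and the call was lost under 6 of 14 alternatives, among them leaving out any of the 3 wounding libraries (adjusted p up to 0.089). In mock it was at 338, 309.9 and 317 FPKM, and after GSH (197, 432 and 378) and Glu (393, 546 and 192) the libraries spread to both sides of mock.

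*RD29B*, the neighbour of *RD29A*, encodes a related protein with a stronger requirement for ABA. It was at 0.863, 3.95 and 4.34 FPKM in wounding mock and at 2.05, 1.25 and 1.31 after wounding, so that the groups overlapped through wounding mock replicate 1 (log2 fold change −0.54, SE 0.40, adjusted p = 0.41). Without that library the change passed, at −1.03 (adjusted p = 0.0027). It was at 2.15, 1.07 and 2.71 FPKM in mock, 0.651, 0.583 and 1.28 after GSH, and 0.818, 1.21 and 0.258 after Glu. The means after GSH and Glu were 0.425 and 0.385 times that of mock, with overlap, and neither passed (adjusted p = 0.16 and 0.11).

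*RAB18* encodes a dehydrin that is widely used as an ABA marker. It was at 31.3, 36.2 and 59.5 FPKM in mock and at 23.9, 17.9 and 27.9 after GSH. All GSH libraries were below all mock libraries, the only tested member of which this was so (26.5% of all tested genes separated in this comparison), and the log2 fold change of −0.81 (SE 0.23) missed the threshold (adjusted p = 0.087). It was at 43.7, 60.4 and 22.7 FPKM after Glu, 21.5, 52.7 and 47.5 in wounding mock, and 53.8, 29.6 and 39.8 after wounding, with overlap in both comparisons (log2 fold changes −0.05 and 0.08, adjusted p = 0.94 and 0.92). *RAB18* overlaps *PLP3b* (AT5G66410) in the annotation, whose level did not pass in any of the 3 treatments (adjusted p from 0.54 to 0.94).

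GSH, a tripeptide that contains a glutamate residue, and Glu were given at the same dose and sampled at the same time. In their direct comparison 0 of 7 tested members and 0.0826% of all genes passed limma's test, and 3 of the 7 members and 8.77% of all genes had an unadjusted p under 0.05. Relative to Glu, the GSH libraries were all lower for *NCED3* (log2 fold change −0.37, 95% interval −0.72 to −0.02, adjusted p = 0.55) and *HAI2* (−0.33, 95% interval −0.62 to −0.05, adjusted p = 0.51). The GSH and Glu libraries did not overlap for 14.6% of all tested genes. *RAB18* was lower by 0.75 with overlap (95% interval −1.46 to −0.05, adjusted p = 0.55). The intervals of *ABI1* (−0.30 to 0.11) and *ABI2* (−0.34 to 0.16) were narrow, and those of *HAI1* (−1.07 to 0.59) and *RD29A* (−1.01 to 0.77) were wide. The controls themselves, mock against wounding mock, gave 0 of 8 tested members and 0.233% of all genes past the threshold. None of the members had an unadjusted p under 0.05, where 5.93% of all tested genes did. The log2 differences of *ABI2* (0.43, all mock libraries higher) and *HAI1* (0.59) between these controls had adjusted p = 0.83 each.

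Across the 15 libraries *ABI1* and *HAI2* varied together (Pearson r = 0.94 of log2(FPKM + 1)), and within groups, after each group mean was taken off, r was 0.90. *RD29B* and *RAB18* had r = 0.68, and 0.86 within groups, and *HAI1* and *RD29A* had 0.68 and 0.73. *CYP707A1* and *RD29A* went in opposite directions (r = −0.78, and −0.65 within groups). These are descriptions over 15 libraries, and the genes of a library share its group and its depth, which is unknown. Wounding mock replicate 1, the lowest of its group for 9 of the 10 members, is among them. Its part in these correlations was not tested. Among 17562 genes, those most like *ABI1* were AT2G28400 (r = 0.97), AT3G62650 (0.96) and AT1G54010 (0.95). Those most like *HAI2* were *RKF3* (0.96), *ARF2* (0.94) and *COR27* (0.94). Those most like *CYP707A1* were AT2G31670 (0.95), *SRF3* (0.93) and AT4G10060 (0.93). Those most like *RD29A* were *ERD10* (0.96), which encodes a dehydrin, *SUC2* (0.92), a sucrose carrier of phloem companion cells, and AT3G55760 (0.91). The highest r for *ABI2* was 0.91 (*IRX15*), and for *RD29B* 0.88 (*PDE327*), *HAI1* 0.86 (*NFXL1*), *RAB18* 0.82 (AT2G47844) and *NCED3* 0.78 (AT4G06598).

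The phloem marker *SUC2* was lower after wounding, as *RD29A* was, by 0.60 on the log2 scale (adjusted p = 0.0083). It was the only one of 4 phloem markers that passed, and they went in different directions: *SULTR2;1* (−0.41, adjusted p = 0.087) was lower and *APL* (0.32, adjusted p = 0.13) higher in every wounding library, and *SEOR1* overlapped. Their sum was 156 to 162 FPKM after wounding and 210 to 227 in wounding mock. Guard cells are a site of ABA response, and their 6 markers summed to 1097 to 1206 FPKM after wounding and to 1143 to 1458 in wounding mock, of which *TGG1* alone made 1053 to 1162 and 1109 to 1424 FPKM. Of the 6, *FAMA* alone passed and was higher (0.53, adjusted p = 0.021), and the median log2 fold change of the list was 0.21. The 3 epidermal markers summed to 59.2 to 66.3 against 74.3 to 105, with *ATML1* (−1.0) and *PDF1* (−1.64) lower, and the 4 green-leaf markers to 14151 to 15202 against 17265 to 18237, with *LHCB1.1* (−2.29) and *RCA* lower. The 3 xylem markers summed to 45.2 to 52.9 against 57.6 to 60.3, and none of them passed. After GSH and Glu 1 of the 3 epidermal markers, *CER6*, was higher (1.21 and 1.13). The epidermal sums were 118 to 189 and 121 to 159 FPKM against 77.5 to 84.0 in mock. Of these, *CER6* alone made 80.6 to 155 after GSH, 79.8 to 132 after Glu and 45.2 to 49.4 in mock. The other epidermal markers did not pass and went in different directions. Mean *ATML1* was 28.7 after GSH and 26.2 after Glu against 24.0 in mock, and mean *PDF1* was 6.64 and 8.28 against 9.69. After Glu 3 of the 6 guard cell markers were higher. Over all tested genes 19.7% passed after wounding, 4.62% after GSH and 10.2% after Glu. The part of these cell types in the values of the members was not tested.

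Of 10 clock genes, 7 were tested after wounding, and *LUX* was higher while *GI*, *PRR5* and *CCA1* were lower. Of all tested genes 8.76% were higher there and 10.9% lower. *CCA1*, a morning gene, was at 0.351 FPKM after wounding and at 1.26 in wounding mock (log2 fold change −0.74, adjusted p = 0.034). It reached 1 FPKM in wounding mock alone of these groups, and so entered the test through the group in which it was high. *LHY* was below 1 FPKM on average in both groups (0.0956 and 0.238 FPKM) and was not tested. None of the 6 tested clock genes passed after GSH or Glu, where 4 and 0 had an unadjusted p under 0.05 by limma. Over all tested genes 4.62% and 10.2% passed, and 20.4% and 26.9% had an unadjusted p under 0.05.

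The wider ABA pathway was read from a list of 73 further genes for synthesis, inactivation, transport, receptors, phosphatases, kinases, transcription factors and response. After wounding, 11 of the 49 tested were higher and 4 lower, 8 and 2 of them DEGs. Of all tested genes 8.76% were higher and 10.9% lower there, and 8.02% were DEGs. The median change of the 49 was −0.01 (log2) and that of all tested genes −0.07. After GSH 5 of 49 were higher and 1 lower, and after Glu 6 of 50 were higher and 3 lower, with medians of 0.13 and 0.24 beside 0.04 and 0.00 for all tested genes. The shares of all tested genes that passed were 4.62% after GSH and 10.2% after Glu.

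The largest changes after wounding were far above those of the members. *RD20*, a caleosin gene induced by ABA and drought, was at 5.76, 12.7 and 12.7 FPKM in wounding mock and at 175, 225 and 227 after wounding (log2 fold change 4.27, SE 0.28, adjusted p = 4.5e-05). *BG1* (AT1G52400, *BGLU18* in RefSeq), whose product can release ABA from its glucose ester, was at 155, 101 and 91.6 FPKM and at 1810, 2139 and 1888 (log2 fold change 4.09, SE 0.19, adjusted p = 8.0e-06). *NAC019*, a NAC transcription factor gene, was at 0, 0.217 and 0.115 FPKM and at 8.52, 10.8 and 10.6 (log2 fold change 3.30, adjusted p = 9.9e-06), and its relative *RD26* was at 0.539, 1.25 and 1.21 FPKM and at 7.19, 6.60 and 6.38 (1.97, adjusted p = 0.00033). Of these 2 groups, *NAC019* reached 1 FPKM after wounding alone, and so entered the test through the group in which it was high. In contrast to the members, *RD20*, *NAC019* and *RD26* were also higher after GSH (0.90, 0.99 and 1.37) and after Glu (0.65, 0.73 and 1.17), all with adjusted p under 0.05. *BG1* did not pass after GSH (0.33, adjusted p = 0.17) or Glu (0.17, adjusted p = 0.32). Its level differed between the controls, 564 to 700 FPKM in mock against 91.6 to 155 in wounding mock (log2 difference 2.48, adjusted p = 0.0046). *RD20* (26.6 to 41.3 against 5.76 to 12.7 FPKM) and *NAC019* (1.02 to 1.45 against 0 to 0.217) were also higher in every mock library, without passing (adjusted p = 0.12 and 0.17). With mock as the control, the wounding changes were 2.58 for *RD20*, 1.61 for *BG1*, 2.31 for *NAC019* and 1.76 for *RD26*, and all still passed.

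Other genes with a wounding change above 1 were the receptor gene *PYL1* (1.18) and the response genes *GBF3* (1.70), *HB12* (1.67) and *HVA22D* (1.03). Smaller increases were seen for the receptor gene *PYR1* (0.80), for *KIN2* (0.52) and for *AFP3* (0.62), the last a gene for a protein that binds ABI5. *ABA1*, which encodes zeaxanthin epoxidase, an early enzyme of ABA synthesis, was lower (−0.85, adjusted p = 0.0017), as was the kinase gene *SNRK2.3* (−0.38). *P5CS1*, a gene of proline synthesis, was lower after all 3 treatments (−1.41 for wounding, −1.32 for GSH and −1.39 for Glu). Of the factors that bind CCGAC, *DREB2A* (1.00, adjusted p = 0.0027) and *CBF3* (0.80, adjusted p = 0.016) were higher after wounding, in the same libraries in which *RD29A* was lower. *GBF3*, *SNRK2.3*, *P5CS1*, *DREB2A*, *CBF3* and *ABF3* overlap another annotated gene. After GSH the receptor gene *PYL4* (0.51) and *RD22* (0.67) were also higher. After Glu, *RD22* (0.58), *GBF3* (0.58), the ABA importer gene *NPF4.6* (0.60) and *DREB2A* (0.52) were higher, and *ABF3* (−0.56), which encodes a factor that binds ABA-responsive elements, and *AFP3* (−0.41) were lower.

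**Figure D4:**
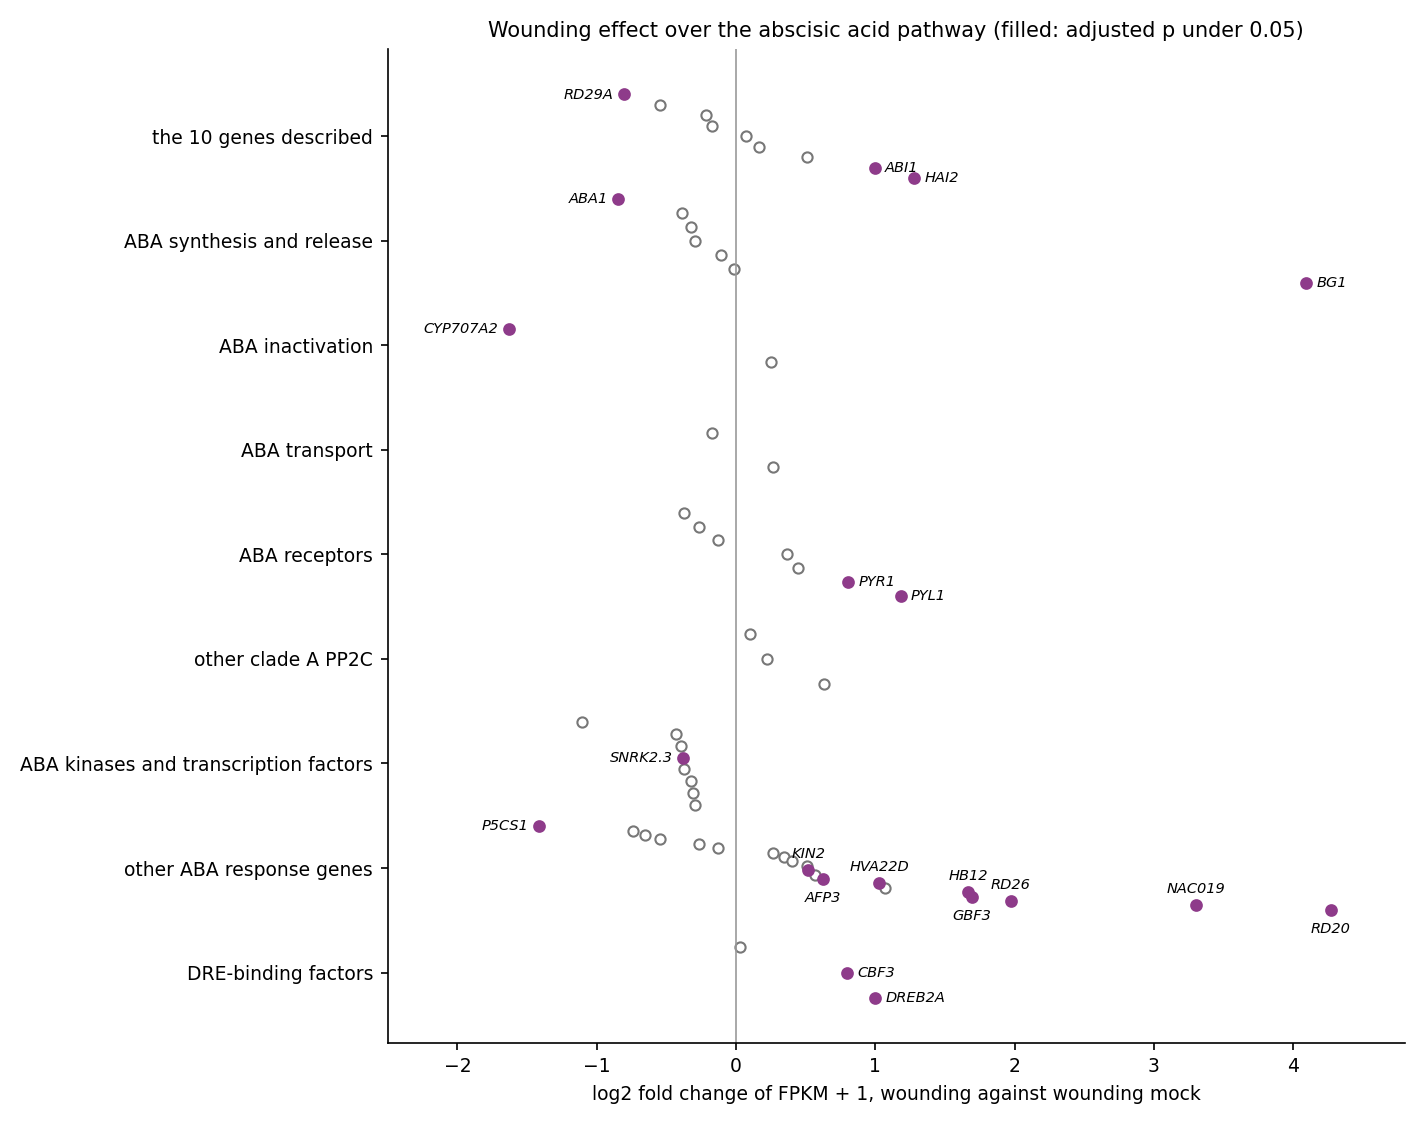
Log2 fold change of FPKM + 1 after wounding against wounding mock (n = 3 per group) for every tested gene of the ABA pathway and for the factors that bind dehydration-responsive elements, 1 row per list. Filled and named points have an adjusted p under 0.05, from *CYP707A2* at −1.63 to *RD20* at 4.27.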

How the data were processed

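RNA-seq of leaf 6 was made in 15 libraries, 3 in each of 5 groups taken from the sample titles. The authors trimmed reads with Cutadapt and Trimmomatic, aligned them with HISAT2 to TAIR10 and quantified them with StringTie; the deposited values are FPKM per gene, not whole counts, so that the depth is unknown and no counting interval can be given. DESeq2 (version 1.16.1) is also named in the submitters' processing notes. Here log2(FPKM + 1) was tested with limma 3.58.1 (R 4.3.3; variance trend, genes with FPKM of at least 1 in at least 3 libraries of the comparison), with Benjamini-Hochberg adjustment over all genes tested. This step was tested on simulated data, with planted changes larger than that of any member and only in genes well above the filter. That test does not cover genes near the filter or smaller changes. A single gene or ratio was tested by an exact permutation test. Alternatives were a pseudocount of 0.1, no filter, a filter at 5 FPKM, all 15 libraries in the fit, no variance trend, median-ratio scaling, the other control, a replicate block and leaving out each library.

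Replicate numbers were not read as pairs: same-numbered libraries correlated from −0.15 to 0.19 in their deviations. The members and lists were chosen with earlier results of these data known. Named besides the 10 genes were, per list, up to 4 genes past the threshold with an absolute log2 fold change above 1, *P5CS1*, *CCA1*, *LHY* and the 3 genes most correlated with each member; other genes past the threshold were named after their values were seen. All 118 listed genes matched the table. Names, overlaps and upstream windows come from RefSeq TAIR10.1 (27443 windows).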

Additional observations from a re-analysis of the deposited data

Results flagged for a closer look

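The effects of wounding and of the molecules differed by a direct test for 4 values among the 10 genes. The effect of GSH minus that of wounding was −0.88 for *ABI1* and −1.19 for *HAI2*, and the effect of Glu minus that of wounding was −0.78 for *ABI1* and −0.76 for *CYP707A1* (log2 scale; limma adjusted p = 0.013, 0.038, 0.021 and 0.022). *CYP707A1* met the expression filter through its wounding libraries alone, the group in which it was high. The treatments have different controls, and the part of the controls in these differences was not tested.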

How the results depend on the processing

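Over the alternatives, 305 of 340 values of single members kept their direction and side of the threshold, 6 lost and 8 gained a call, and 21 changed sign, none of the last with a call. After wounding *ABI1* and *HAI2* passed under all 14 alternatives (adjusted p from 5.8e-05 to 0.019 and from 0.00051 to 0.044), and *RD29A* under 8 of 14 (7.3e-06 to 0.089); it was lost without the filter (0.059), with all 15 libraries (0.082), and without wounding mock replicate 2 or any wounding library. *CYP707A1* was called under 4 of 10 alternatives; with no variance trend 4 members passed after wounding and 3 for GSH minus wounding. The cause was not tested.

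With mock as the control of wounding 37.8% of all genes passed in place of 19.7%, and 5 members in place of 3, the added ones being *CYP707A1* (0.48) and *HAI1* (−0.75), and *ABI2* (−0.26) and *RAB18* (−0.030) changed sign. For *RD20*, *BG1*, *NAC019* and *RD26* this control was tried after seeing the data, and it lowered their wounding changes to 2.58, 1.61, 2.31 and 1.76. With the DEG criterion 1 passed after wounding, 1 for GSH minus wounding and 0 for Glu minus wounding. Leaving out 1 library at a time gave 2 to 5 members after wounding, 0 to 1 after Glu, 1 to 3 for GSH minus wounding and 0 to 3 for Glu minus wounding. For GSH minus wounding 1 member passed with a pseudocount of 0.1, and for Glu minus wounding 1 with the filter at 5 FPKM. With the replicate block, which is no pairing here, 1 member passed for GSH against mock (*RAB18*, adjusted p = 0.048) and 1 for GSH minus wounding, and no other count moved. Same-numbered libraries correlated best with each other in 0, 0 and 2 of 3 pairs for GSH, Glu and wounding.

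With wounding mock as the control, *ABI2* (0.27), *HAI1* (0.00047) and *RD29A* (0.053) changed sign for GSH, and *ABI2* (0.37), *HAI1* (0.24) and *RAB18* (0.052) for Glu. Where leaving out 1 library changed a sign, the log2 fold change for GSH ran from −0.020 to 0.25 for *ABI1*, −0.10 to 0.33 for *HAI2* and −0.24 to 0.33 for *RD29A*. Likewise it ran for Glu from −0.15 to 0.066 for *ABI2*, −0.23 to 0.52 for *RD29A* and −0.36 to 0.33 for *RAB18*. For wounding it ran from −0.026 to 0.28 for *ABI2*, −0.46 to 0.11 for *HAI1* and −0.32 to 0.31 for *RAB18*.

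The unknown depth limits what the low genes can show: *NCED3*, *CYP707A1*, *CYP707A3* and *RD29B* were near or under the filter.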
